A study of Caenorhabditis elegans with 12 samples.

Results

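The lysozyme genes lys-1 to lys-8 and lys-10 of Caenorhabditis elegans are described here, 9 of the 46934 gene entries in the counts. The rule that picks them uses gene symbols and no measured value, and each symbol was matched to its gene identifier in the annotation of the WBcel235 assembly (WBGene00003090 to WBGene00003097 for lys-1 to lys-8, in that order, and WBGene00003099 for lys-10). All 9 were found, and all 9 were among the 16259 genes that passed the filter on low counts.

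Lysozymes cut the sugar backbone of bacterial cell walls. The lys genes encode the protist-type lysozymes of the worm, a class apart from its invertebrate-type lysozymes (the ilys genes). The worm eats bacteria, and its pharynx grinds them before they reach the gut. Several lys genes are made in intestinal cells, where lysozymes are known both as digestive enzymes and as antibacterial effectors of innate immunity. Transcription of several lys genes is known to answer to bacterial infection and to the p38 MAP kinase, DBL-1 (TGF-beta) and insulin-like (DAF-2 and DAF-16) pathways.

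The study concerns the ribonuclease DIS-3 and lifespan, and it sequenced RNA from whole bodies of prefertile adult hermaphrodites grown at 20 °C on OP50, a laboratory strain of Escherichia coli. There were 4 genotypes with 3 libraries each: the double mutant eat-2(ad1116); dis-3(L75Q) (strain IJ2290), the single mutant eat-2(ad1116) (IJ173), the single mutant dis-3(L75Q) (VC40130) and the wild type N2. The eat-2 gene encodes a subunit of the acetylcholine receptor that sets the pumping rate of the pharynx, and its mutants pump slowly, eat less and serve as a genetic model of dietary restriction. DIS-3 is the nuclease of the RNA exosome, and the L75Q allele changes an amino acid of the protein. Each genotype was 1 strain, so an allele and any other variant of its strain cannot be told apart. The 3 libraries of a genotype came from separate harvests, and p-values measure the spread between those harvests.

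Libraries held 31812386 to 32773817 counts each (median 32292799). The transcripts of the mutated genes were not called in any comparison and so do not check the labels. dis-3 averaged 168 ± 7.2 CPM in the double mutant, 160.5 ± 8.08 in eat-2(ad1116), 185 ± 4.02 in dis-3(L75Q) and 182 ± 11.9 in the wild type (SD, n = 3 each), and L75Q changes an amino acid. eat-2 had 9 to 10 counts per library in the double mutant, 6 to 24 in eat-2(ad1116), 14 to 23 in dis-3(L75Q) and 16 to 24 in the wild type. CPM here means the count of a gene as a share of the library total, on the usual scale of this unit, after TMM scaling. Libraries of 1 genotype differed in molting and oocyte genes. A stage score was formed by subtracting the mean log2 CPM of 20 genes of oocytes and eggshell from that of 25 genes of the molting cycle. It ran from 0.54 to 1.18 in the double mutant, from -1.15 to 2.14 in eat-2(ad1116), from -0.86 to 2.17 in dis-3(L75Q) and from -3.51 to 0.39 in the wild type. Apart from the others of their genotype stood 3 libraries: replicate 1 of eat-2(ad1116) (-1.15), replicate 3 of dis-3(L75Q) (-0.86) and replicate 2 of the wild type (0.39).

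The 9 genes lie on chromosomes II, IV and V (WBcel235, Ensembl 115), 6 of them in 2 tight groups, and each has 1 annotated transcript. On chromosome V, lys-1 (10277904 to 10279056, plus strand), lys-2 (10280307 to 10281474, minus strand) and lys-3 (10282100 to 10283544, minus strand) span 5641 bp with no other annotated gene in the 1250 and 625 bp between them. On chromosome IV, lys-4 (11621429 to 11623174), lys-5 (11624252 to 11625582) and lys-6 (11626910 to 11627947), all on the minus strand, span 6519 bp, again with no annotated gene in the gaps of 1077 and 1327 bp. The other 3 lie apart from these groups: lys-7 on chromosome V (3481432 to 3482600, minus strand), lys-8 on chromosome II (5586178 to 5587651, plus strand) and lys-10 on chromosome IV (8332826 to 8333518, plus strand). The transcript of lys-10 is a single exon of 693 bp, and those of the others have 2 or 3 exons.

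Reads were shared within the chromosome IV group. The deposited estimates were whole numbers in all 12 libraries for 7 of the genes, whereas those of lys-5 and lys-6 were whole in none of the 12. The sum of lys-5 and lys-6 was whole in all 12, so reads were divided between this pair and the split of counts between them is uncertain. lys-8 overlaps C17G10.13 on the other strand, which itself had 672 to 1253 counts per library, and reads of that pair may not be separable, because no source used here states whether counting used the strand. lys-4 overlaps a piRNA gene on its own strand.

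Per length of transcript, lys-4 had the highest level of the 9 in all 4 genotypes, with means of 1442 CPM per kb in the double mutant, 1250 in eat-2(ad1116), 1254 in dis-3(L75Q) and 899.5 in the wild type. lys-1 came next at 510 CPM per kb in the double mutant, 566 in eat-2(ad1116), 568 in dis-3(L75Q) and 458 in the wild type, followed by lys-8 at 304 CPM per kb in the double mutant, 296 in eat-2(ad1116), 309 in dis-3(L75Q) and 268 in the wild type. The place of lys-7 depended on the eat-2 allele. It stood next, above lys-2, in the double mutant (263 against 161 CPM per kb) and in eat-2(ad1116) (237 against 201), and below lys-2 in dis-3(L75Q) (65.9 against 183) and in the wild type (56.7 against 146.5). lys-6 and lys-5 followed at 11.8 to 19.9 and 6.3 to 13.4 CPM per kb. At the bottom were lys-3, at 1.23 to 2.24 CPM per kb, and lys-10, at 0.189 to 3.51. Neighbours in this order did not overlap between libraries of a genotype, with 1 exception, lys-3 and lys-10 in the double mutant (2.21 and 2.08 CPM per kb). Among all genes tested, ranked by mean level per length, lys-4 was 117th, lys-1 226th, lys-8 355th, lys-2 581st and lys-7 647th, while lys-6 was 6259th, lys-5 8211th, lys-3 12820th and lys-10 13246th. The lys genes together took 0.134% to 0.254% of a library's counts.

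**Figure D1:**
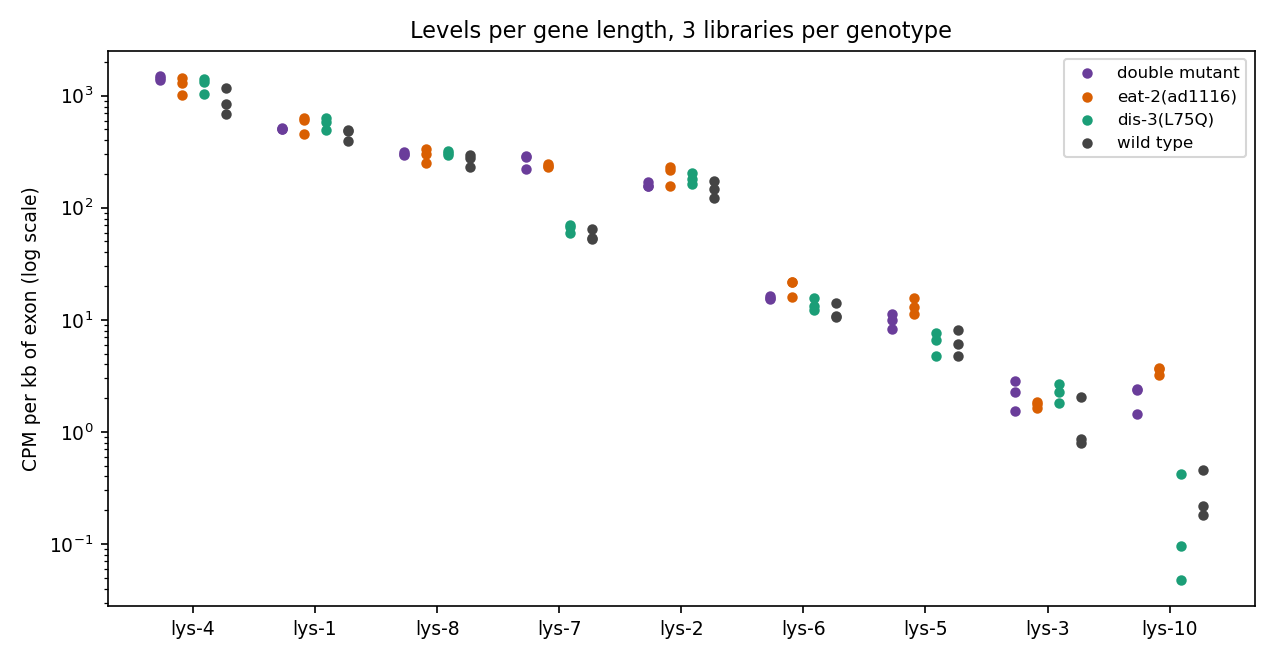
Level of each lys gene per length of transcript in the 4 genotypes. The axis is CPM per kb on a log scale, and points are libraries, 3 per genotype. lys-4, lys-1 and lys-8 lead in every genotype, and lys-7 lies above lys-2 in the genotypes that carry eat-2(ad1116) and below it in the other 2.

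In eat-2(ad1116) against the wild type, 4 of the 9 genes were higher and none lower: lys-7, lys-10, lys-5 and lys-6 (edgeR quasi-likelihood test, adjusted p under 0.05 by Benjamini-Hochberg over all genes tested). Of all genes tested, 6.21% were called in this comparison and 4.08% were called higher. lys-10 passed the filter on low counts only through libraries with the eat-2 allele, so its call is not independent of the filter. The median log2 fold change of the 9 was 0.51, beside -0.01 for all genes tested, and all 9 estimates were above 0. Libraries of the 2 genotypes did not overlap for 4 of the 9, all higher in eat-2(ad1116), as was so for 12.1% of all genes tested.

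lys-7, a gene known as a target of DAF-16 that contributes to defence against bacteria, separated the libraries by eat-2 allele. It had 199.8, 259 and 254 CPM in the double mutant and 222, 209 and 211 CPM in eat-2(ad1116). The level was 63.6, 54.2 and 60.6 CPM in dis-3(L75Q) and 48.4, 57.9 and 47.2 CPM in the wild type. The lowest of the 6 libraries with the eat-2 allele was 3.14 times the highest of the 6 without it. The log2 fold change of lys-7 was 2.07 ± 0.12 (SE, 4.18-fold, 95% interval 1.79 to 2.34) in eat-2(ad1116) against the wild type, with an adjusted p of 1.39e-05 that was the 5th smallest of all genes tested. In the double mutant against dis-3(L75Q), that is, the same eat-2 contrast in the other background, lys-7 was 3.99-fold higher (log2 2.00 ± 0.12, adjusted p = 2.39e-05). The double mutant against the wild type gave 4.64-fold (log2 2.21 ± 0.12, adjusted p = 1.11e-05).

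lys-10 was the lowest of the genes in the wild type and had the largest fold change of the 9. It had 33, 57 and 55 counts in the double mutant and 81, 82 and 81 counts in eat-2(ad1116), against 2, 1 and 9 counts in dis-3(L75Q) and 4, 10 and 5 counts in the wild type. The 6 libraries with the eat-2 allele were all above the 6 without it. The gene passed the filter on low counts only through the libraries with eat-2(ad1116). Its fitted log2 fold change was 3.59 ± 0.53 in eat-2(ad1116) against the wild type (12.1-fold, adjusted p = 0.00491), 3.42 ± 0.56 in the double mutant against dis-3(L75Q) (10.7-fold, adjusted p = 0.0146) and 2.84 ± 0.53 in the double mutant against the wild type (7.16-fold, adjusted p = 0.015). From summed counts alone, eat-2(ad1116) with 244 counts was 12.3 times the wild type with 19 (95% interval 7.68 to 20.7, counting error only). The call in the double mutant against the wild type was lost when wild type replicate 1 or 3 or double mutant replicate 2 or 3 was left out, where the adjusted p reached 0.0725 at most. The call against dis-3(L75Q) was lost in 5 of 20 alternatives, among them leaving out dis-3(L75Q) replicate 1 or 2 or double mutant replicate 2 or 3, with an adjusted p of 0.0714 at most.

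lys-5 and lys-6, neighbours on chromosome IV that share reads, were both higher in eat-2(ad1116) than in the wild type. lys-5, which is known to contribute to defence against Bacillus thuringiensis, had 7.93, 9.18 and 11 CPM in eat-2(ad1116), against 3.36, 5.73 and 4.29 CPM in the wild type, and no libraries overlapped. It had 7.92, 5.74 and 7 CPM in the double mutant, against 4.63, 5.3 and 3.29 CPM in dis-3(L75Q). lys-6 had 11.3, 15.5 and 15.4 CPM in eat-2(ad1116), against 7.45, 9.97 and 7.61 CPM in the wild type, again with no overlap. Its levels were 11.5, 11 and 11.1 CPM in the double mutant, against 8.67, 11.1 and 9.33 CPM in dis-3(L75Q), which overlap. For lys-5 the 6 libraries with the eat-2 allele were all above the 6 without it, by a narrow margin (5.74 against 5.73 CPM). With lys-7 and lys-10 this makes 3 of the 9, beside 2.68% of all genes tested. lys-10 was among the genes tested only through its libraries with the eat-2 allele, so the filter partly set its place in this count. In eat-2(ad1116) against the wild type the log2 fold change was 1.07 ± 0.25 for lys-5 (2.10-fold, adjusted p = 0.032) and 0.76 ± 0.18 for lys-6 (1.69-fold, adjusted p = 0.032). Counted as 1 gene, a setting chosen after the sharing was seen, the pair was 1.83-fold higher (log2 0.87 ± 0.18, adjusted p = 0.0196), with 23.5 ± 3.74 CPM in eat-2(ad1116) and 12.8 ± 2.57 CPM in the wild type (SD, n = 3 each).

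Both calls rest on few libraries. Over 21 alternatives lys-5 and lys-6 each kept the call in 12. Among the 21 is the pair counted as 1 gene, chosen after the sharing was seen, whose call is included in the 12 of both. The estimates ran from 0.65 to 1.40 for lys-5 and from 0.47 to 1.03 for lys-6, with adjusted p up to 0.16 and 0.209. The calls were lost when wild type replicate 1 or 3, eat-2(ad1116) replicate 2 or 3 or double mutant replicate 1 or 3 was left out, and that of lys-6 also without double mutant replicate 2. Neither was called in the double mutant: lys-5 was 0.64 higher than in dis-3(L75Q) on the log2 scale (adjusted p = 0.369) and lys-6 was 0.20 higher (adjusted p = 0.776).

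**Figure D2:**
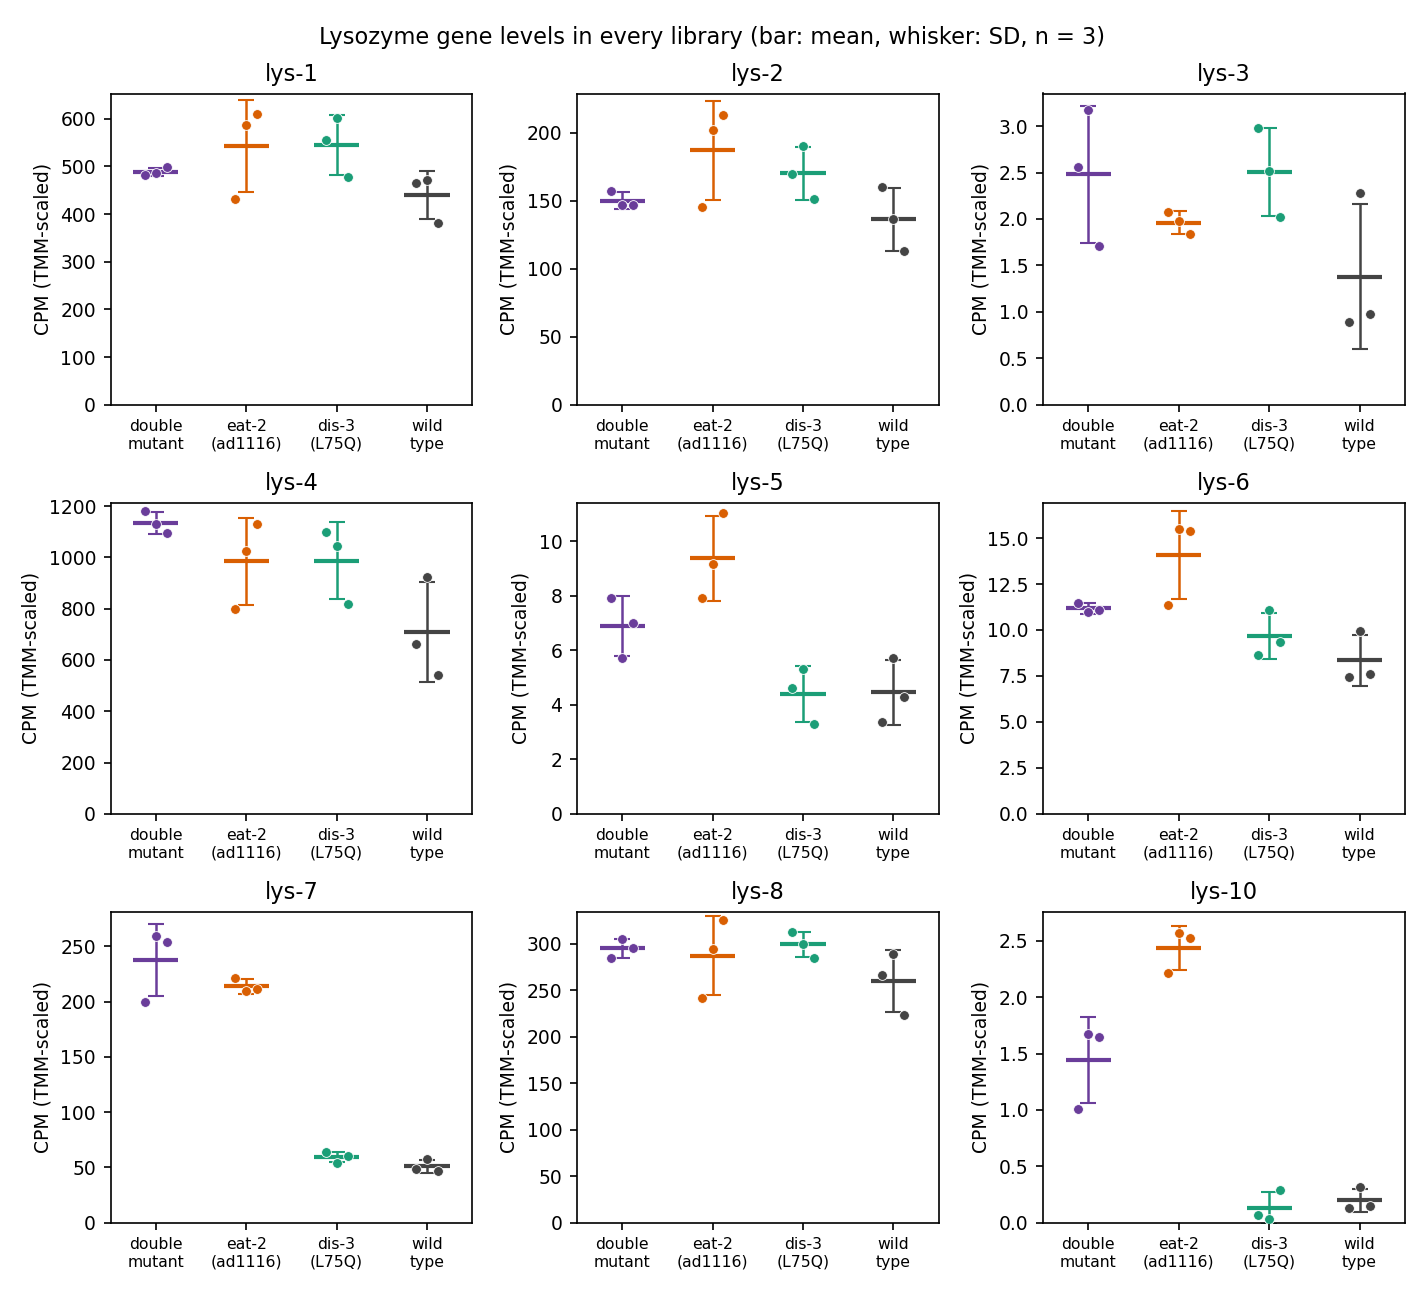
TMM-scaled CPM of the 9 lys genes in each library, 1 panel per gene with its own axis. Points are libraries and bars mark the mean of 3 per genotype. The libraries with the eat-2 allele lie above all libraries without it for lys-7, lys-10 and, by a narrow margin, lys-5, and for the other 6 genes the libraries with and without it overlap.

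The other 5 genes were not called in eat-2(ad1116) against the wild type. lys-4, the most abundant, had 799, 1027 and 1129 CPM in eat-2(ad1116), against 662, 924 and 541 CPM in the wild type, and the groups overlap (log2 0.47, adjusted p = 0.155). It had 1181, 1131 and 1096 CPM in the double mutant, all above the wild type libraries (log2 0.68, adjusted p = 0.0805), and 1101, 1044 and 819 CPM in dis-3(L75Q). The double mutant libraries lay close together, and the wild type libraries were the most spread.

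lys-1, known to be induced by Serratia marcescens, averaged 543 ± 96.8 CPM in eat-2(ad1116) and 439 ± 50.5 CPM in the wild type (log2 0.31, adjusted p = 0.195). Its neighbour lys-2, a gene induced by Pseudomonas aeruginosa, averaged 187 ± 36.2 CPM in eat-2(ad1116) and 136 ± 23.3 CPM in the wild type (log2 0.46, adjusted p = 0.109). lys-3, the third gene of that group, had 2.08, 1.97 and 1.84 CPM in eat-2(ad1116), against 0.888, 2.28 and 0.974 CPM in the wild type (log2 0.51, adjusted p = 0.365). Libraries of the 2 genotypes overlapped for each of these 3 genes. lys-8, known as a target of DBL-1 signalling, averaged 287 ± 42.4 CPM in eat-2(ad1116) and 259.8 ± 33.4 CPM in the wild type, a log2 difference of 0.14 with a 95% interval of -0.13 to 0.42.

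The dis-3(L75Q) allele was compared in both backgrounds, and no lys gene was called in either. In dis-3(L75Q) against the wild type, 0.56% of all genes tested were called. None of the 9 was called by edgeR or by DESeq2, 2 had an unadjusted p under 0.05, and the median log2 fold change was 0.22, beside 0.02 for all genes tested. The larger of those 2 edgeR p-values, 0.0375 for lys-3, was the 2054th smallest of the 16259 genes tested. Libraries did not overlap for 1 of the 9, lys-1, which was higher in dis-3(L75Q) (556, 600.5 and 478 CPM, against 465, 472 and 381 CPM in the wild type). Of all genes tested, 9.37% were likewise higher without overlap. lys-7 averaged 59.5 ± 4.8 CPM in dis-3(L75Q) and 51.1 ± 5.85 CPM in the wild type, a log2 difference of 0.22 with a 95% interval of -0.04 to 0.48. The largest estimate was that of lys-3, at 0.86 (adjusted p = 0.296), from 2.98, 2.52 and 2.02 CPM in dis-3(L75Q), against 0.888, 2.28 and 0.974 CPM in the wild type.

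Set against eat-2(ad1116), the double mutant had 0.351% of all genes tested called and again none of the 9, by edgeR or DESeq2, and none had an unadjusted p under 0.05. The median log2 fold change was -0.15, beside 0.0039 for all genes tested. Both lys-5 and lys-10 had all double mutant libraries below all eat-2(ad1116) libraries, as was so for 4.67% of all genes tested, but for lys-5 the highest double mutant library and the lowest of eat-2(ad1116) were both at 7.9 CPM, and its counts are shared with lys-6. For lys-10 the log2 difference was -0.75 ± 0.44 (adjusted p = 0.986), with 145 counts in the double mutant and 244 in eat-2(ad1116). For lys-7 it was 0.15, with an adjusted p of 1.

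Against the wild type, the double mutant had 2 of the 9 higher, lys-7 and lys-10, and none lower, where 4.28% of all genes tested were called and 2.54% called higher. The limit that the filter sets for lys-10 holds here and against dis-3(L75Q) too. An unadjusted p under 0.05 was found for 6 of the 9, and the median log2 fold change was 0.63, beside 0.02 for all genes tested. The largest of those edgeR p-values, 0.0399 for lys-3, was the 3305th smallest of the 16259 genes tested. Libraries did not overlap for 6 of the 9, all higher in the double mutant. Of all genes tested, 20.4% were likewise higher without overlap, and 16.9% were lower without overlap. The double mutant against dis-3(L75Q) gave the same count, 2 higher and none lower, where 1.24% of all genes were called and 0.541% called higher, with a median of 0.20 beside 0.05 for all genes tested. Libraries of these genotypes did not overlap for 3 of the 9, all higher in the double mutant, as was so for 11.2% of all genes tested. DESeq2 called 4 of the 9 in eat-2(ad1116) against the wild type (14.1% of all genes), 3 for the double mutant over the wild type (11.1%) and 2 for it over dis-3(L75Q) (3.75%). Summed over the 9, the genes gave 2330 ± 19.8 CPM in the double mutant, 2244 ± 341 in eat-2(ad1116), 2078 ± 234 in dis-3(L75Q) and 1610 ± 289 in the wild type (SD, n = 3 each), with lys-4 making up 41% to 50.8% of the sum.

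**Figure D3:**
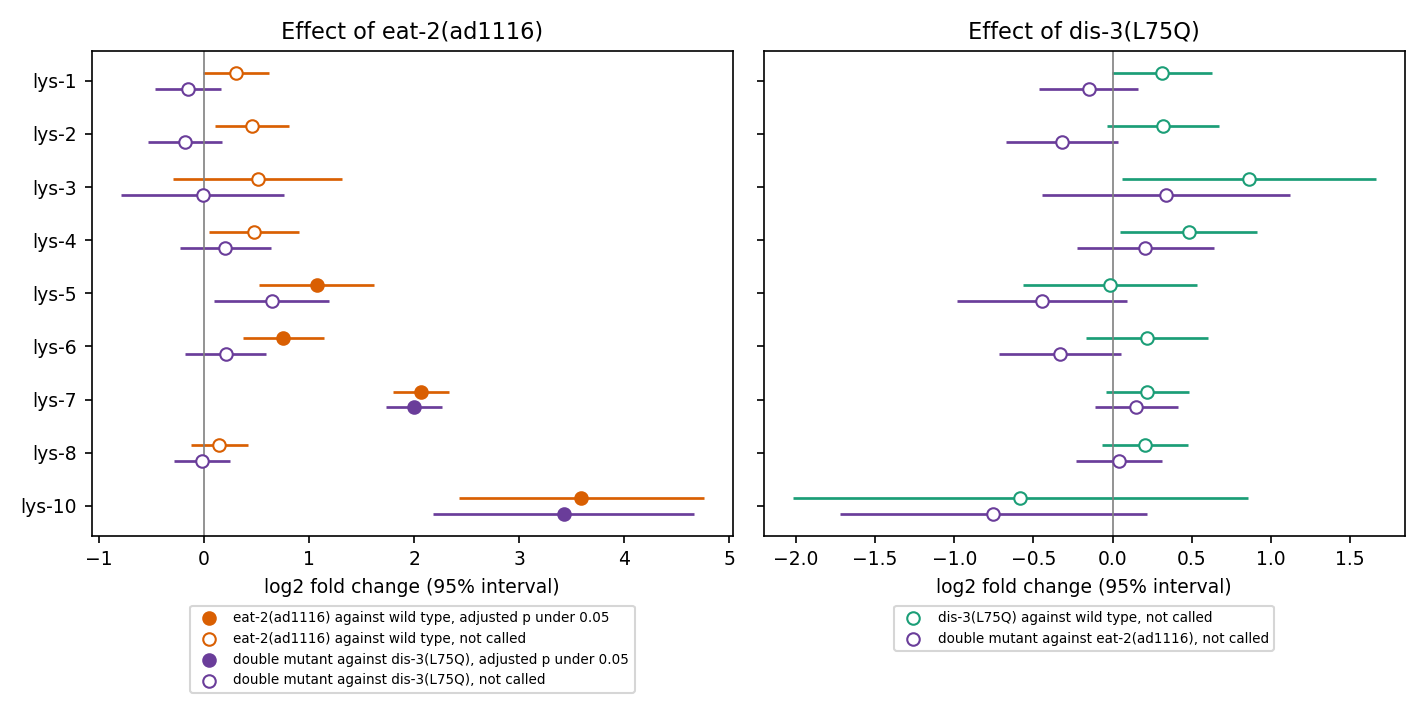
Log2 fold change of each lys gene for the eat-2 allele and the dis-3 allele, each in both backgrounds. Points are edgeR estimates and lines are 95% intervals, with filled points for an adjusted p under 0.05. For the eat-2 allele lys-7 and lys-10 are filled in both backgrounds and lys-5 and lys-6 in the wild type background only, where the difference between backgrounds was not called, and for the dis-3 allele no point is filled.

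Whether the eat-2 effect differed between the backgrounds was tested as an interaction, with 0.0615% of all genes tested called. None of the 9 was called by edgeR or DESeq2, and 3 had an unadjusted p under 0.05. The largest of those 3 edgeR p-values, 0.0477 for lys-6, was the 1094th smallest of the 16259 genes tested. For lys-7 the interaction was -0.07, with a 95% interval of -0.44 to 0.30 on the log2 scale, and for lys-10 it was -0.17 with an interval of -2.08 to 1.74. All 9 estimates were negative, with a median of -0.43 beside -0.02 for all genes tested. The smallest p among them was that of lys-2 (-0.64 ± 0.23, unadjusted p = 0.0171, adjusted p = 0.522), followed by lys-6 (-0.55) and lys-1 (-0.46) at the same adjusted p.

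Levels were also read against the stage score. For 4 of the 9, lys-1, lys-4, lys-5 and lys-8, the libraries of low score in their genotype, eat-2(ad1116) replicate 1 and dis-3(L75Q) replicate 3, had the lowest level of that genotype, and wild type replicate 2, of high score, had the highest. The same order was found for 23.1% of all genes tested and its opposite for 20.7%. lys-7 did not show this order: eat-2(ad1116) replicate 1 had the highest level of its genotype, at 222 CPM. With the stage score as a covariate, 2 of the 9 were called higher in eat-2(ad1116) against the wild type. There 4.94% of all genes tested were called, 1.75% higher and 3.19% lower. The 2 lys genes were lys-7 (log2 2.02 ± 0.14, adjusted p = 3.25e-05) and lys-10 (log2 3.60 ± 0.60, adjusted p = 0.00804). lys-5 was at 0.65 (adjusted p = 0.126), lys-6 at 0.47 (adjusted p = 0.131) and lys-4 at 0.03 (adjusted p = 0.898).

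Without the 3 libraries that stood apart on the score, all 9 were called higher in eat-2(ad1116) against the wild type, but so were 29.9% of all genes tested, and 58.6% were called in either direction. Against the wild type, 7 were then called higher in dis-3(L75Q) (27% of all genes higher) and 7 in the double mutant (23.8% higher). The double mutant had 5 called lower than eat-2(ad1116): lys-1, lys-2, lys-5, lys-6 and lys-10 (10.2% of all genes lower). Against dis-3(L75Q), it had lys-7 and lys-10 called higher (12.3% of all genes higher). lys-1 was called lower there (log2 -0.29, adjusted p = 0.0216), as were 12.7% of all genes. lys-4 was then at 0.84 in eat-2(ad1116) (adjusted p = 3.19e-05) and 0.86 in dis-3(L75Q) (adjusted p = 4.1e-05), each against the wild type. The interaction was called for 7, all negative, every gene except lys-7 and lys-10, where 28% of all genes were called in that direction. lys-7 stayed near 0 there (-0.17, adjusted p = 0.39). Those 9 libraries differ in score by genotype, with wild type at -2.63 and -3.51 and the others at 0.54 or above, so genotype and stage cannot be told apart in them.

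**Figure D4:**
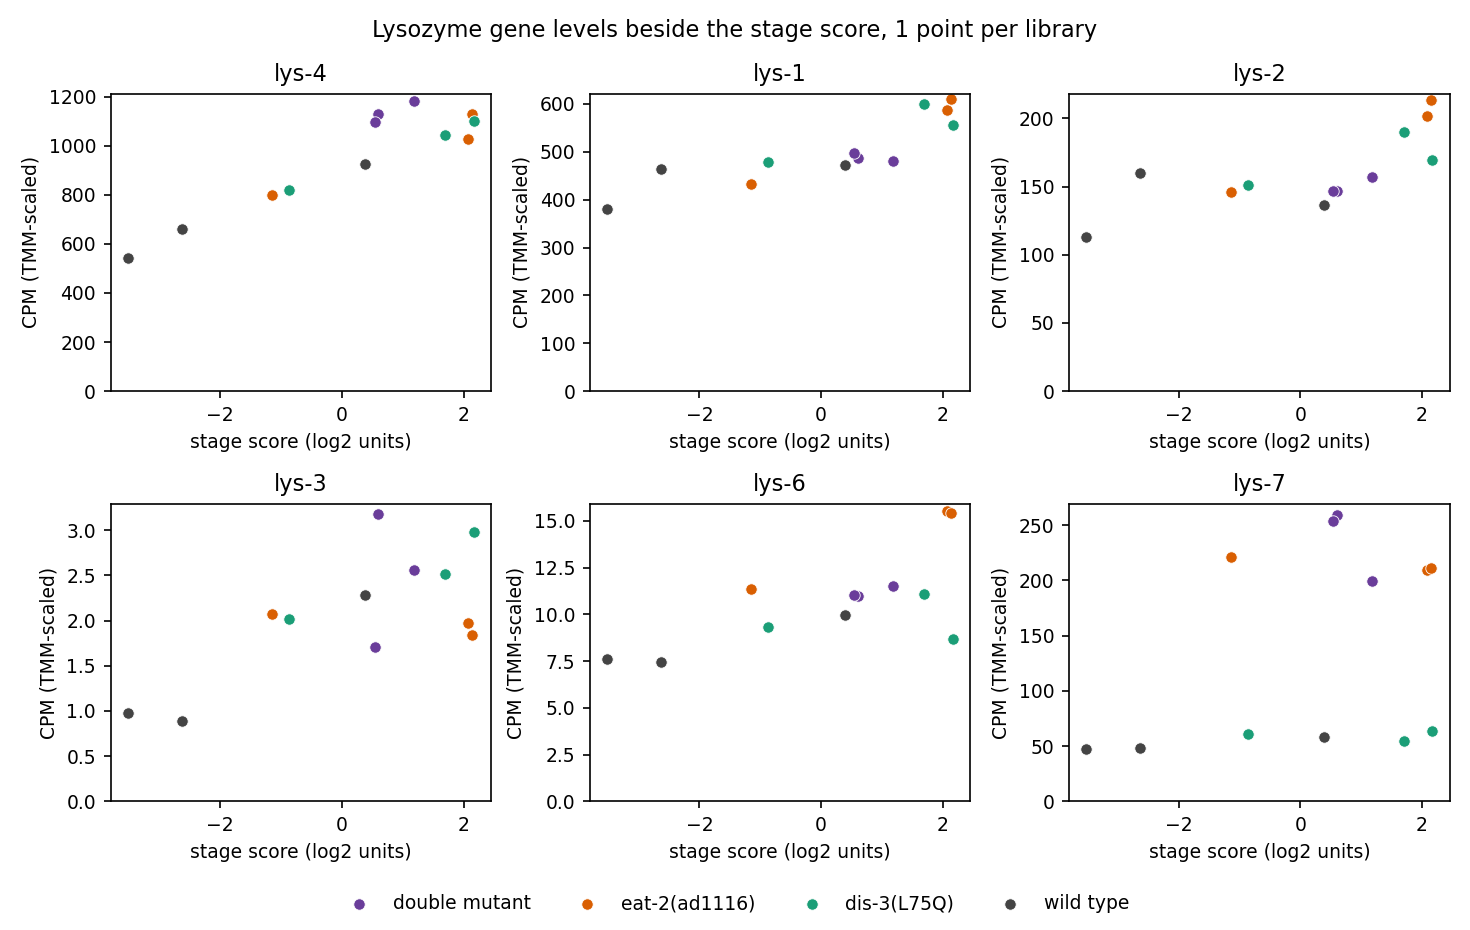
CPM of lys-4, lys-1, lys-2, lys-3, lys-6 and lys-7 against the stage score in the 12 libraries, with a panel for each gene. The vertical axis is TMM-scaled CPM, the horizontal axis is the stage score in log2 units (higher with more molting and less oocyte RNA), and colours mark genotypes. The lowest lys-4 levels are at the lowest scores. lys-7 separates the 6 libraries with the eat-2 allele, single and double mutant, from the 6 without it. No library with the allele has a score below -1.15.

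Since the libraries are of whole bodies, fewer cells of a type and less RNA per cell cannot be told apart. Of all genes tested, 0.0615% to 6.21% were called, depending on the comparison. The 12 intestine markers measured had no member called in any comparison, and none at 0 in any genotype. Their summed level ranged over 4410 to 4459 CPM in the double mutant, 3299 to 5196 in eat-2(ad1116), 4820 to 5740 in dis-3(L75Q) and 4485 to 4843 in the wild type, with a median log2 fold change of -0.05 in eat-2(ad1116) against the wild type. Of 7 pharynx markers, 1 was higher in eat-2(ad1116) than in the wild type, beside 4.08% of all genes tested. The sum of the 7 was 806 to 2016 CPM in eat-2(ad1116) and 746 to 971 CPM in the wild type. Of 6 yolk genes, 3 were lower in eat-2(ad1116) than in the wild type (2.12% of all genes tested) and 1 was lower in the double mutant (1.74%). Their summed level was 448 to 818 CPM in the double mutant, 114 to 1322 in eat-2(ad1116), 893 to 3549 in dis-3(L75Q) and 2278 to 5846 in the wild type. The part of the pharynx and yolk levels in the lys results was not tested.

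The ratio of the neighbours lys-1 and lys-2 varied little, though every eat-2(ad1116) library was below those of the double mutant and dis-3(L75Q). lys-1 was 2.86 to 3.46 times lys-2 in CPM over the 12 libraries, with 3.06 to 3.40 in the double mutant, 2.86 to 2.97 in eat-2(ad1116), 3.16 to 3.28 in dis-3(L75Q) and 2.91 to 3.46 in the wild type. Likeness of pattern was measured as the root mean square difference of centred log2 CPM over the 12 libraries. It was 0.093 for lys-1 and lys-2, the smallest of the 36 pairs of lys genes, whose median was 0.49. The measure is also small where both genes of a pair vary little, and the own variation of these genes is not given. Other neighbours were less alike, at 0.51 for lys-2 and lys-3, 0.43 for lys-4 and lys-5 and 0.28 for lys-5 and lys-6, which share reads. By contrast, lys-1 and lys-8, on separate chromosomes, were at 0.10. It was 0.87 for lys-7 and lys-10, a pair in which lys-10 had few reads.

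Outside the family, the genes with the most similar pattern were looked up among 6513 named genes with a mean of at least 5 CPM. For lys-7 they were thn-2, of the thaumatin family, at 0.26, and spp-2, a saposin-like protein gene of the class that includes antimicrobial peptides, at 0.29, where lys-7 itself varied by 1.03 around its mean on the same scale. For lys-5 they were flp-8, a neuropeptide gene, at 0.19 and the chitinase-like gene chil-22 at 0.21 (own variation 0.52). For lys-6 they were agr-1, the agrin gene, at 0.10 and srlf-32 at 0.12 (own variation 0.32). lys-10 was below the minimum level for this measure.

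Of the 6 invertebrate-type lysozyme genes, the other lysozyme class of the worm, 4 were tested. Of these, 2 (ilys-2 and ilys-3) were higher in the same 3 comparisons as lys-7 and lys-10, and none was lower in any comparison. Of all genes tested, 4.08% were called higher in eat-2(ad1116) against the wild type. The shares for the double mutant were 2.54% against the wild type and 0.541% against dis-3(L75Q). ilys-2 averaged 1.99 ± 0.262 CPM in the double mutant, 4.55 ± 0.203 in eat-2(ad1116), 0.416 ± 0.128 in dis-3(L75Q) and 0.373 ± 0.214 in the wild type (SD, n = 3 each). It was 12.1-fold higher in eat-2(ad1116) than in the wild type (log2 3.59 ± 0.39, adjusted p = 0.000724) and 4.76-fold higher in the double mutant than in dis-3(L75Q) (adjusted p = 0.0165). ilys-3, a lysozyme gene known to be needed for defence against Gram-positive bacteria, averaged 1.93 ± 0.622 CPM in the double mutant, 2.51 ± 0.508 in eat-2(ad1116), 0.274 ± 0.0522 in dis-3(L75Q) and 0.0946 ± 0.0844 in the wild type. Like lys-10, it passed the filter on low counts only through the libraries with the eat-2 allele, with 1 to 6 counts per wild type library. From summed counts, eat-2(ad1116) with 255 counts was 27 times the wild type with 9 (95% interval 14 to 59.8, counting error only). The fitted values called it higher in eat-2(ad1116) than in the wild type (log2 4.68 ± 0.49, adjusted p = 0.000614) and 6.97-fold higher in the double mutant than in dis-3(L75Q) (adjusted p = 0.00941). Against dis-3(L75Q), ilys-2 kept the call in 14 of 20 alternatives and ilys-3 in 17. ilys-2 too was at few counts without the eat-2 allele, with 4 to 16 per wild type library.

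Among 36 regulators of intestinal immune genes, all tested, 4 were higher and none lower in eat-2(ad1116) against the wild type, beside the 4.08% of all genes called higher there, and the median log2 fold change was 0.43. pqm-1, a zinc finger transcription factor of stress and immune genes that acts beside DAF-16, averaged 26.8 ± 1.33 CPM in the double mutant, 27.2 ± 5.87 in eat-2(ad1116), 13.4 ± 1.2 in dis-3(L75Q) and 11.7 ± 1.8 in the wild type. It was 2.33-fold higher in eat-2(ad1116) than in the wild type (log2 1.22 ± 0.17, adjusted p = 0.0043) and 2.01-fold higher in the double mutant than in dis-3(L75Q) (adjusted p = 0.0178). The other 3 were zip-2, a bZIP factor of the response to Pseudomonas (1.61-fold, adjusted p = 0.0301), daf-2, the insulin-like receptor (1.58-fold, adjusted p = 0.045), and sma-9, a transcription cofactor of DBL-1 signalling (1.56-fold, adjusted p = 0.049). These 3 kept the call in 7 to 10 of 20 alternatives, and pqm-1 in 19 there and in 14 for the double mutant against dis-3(L75Q). By pathway, none of 8 p38 MAP kinase genes, 1 of 8 DBL-1 genes, 1 of 7 insulin-like signalling genes and 2 of 13 other factors were called higher, counts too small to tell from that 4.08%. An unadjusted p under 0.05 was found there for 16 of the 36 regulators. By pathway these were 3 of 8, 6 of 8, 1 of 7 and 6 of 13, in the same order. In that comparison an edgeR p of 0.0549, that of lys-1, was the 4578th smallest of the 16259 genes tested. For the double mutant, pqm-1 was the 1 regulator called, higher both against the wild type and against dis-3(L75Q). No regulator was called for the dis-3 allele in either background, where 6 of the 36 had an unadjusted p under 0.05 in dis-3(L75Q) against the wild type and 1 of the 36 in the double mutant beside eat-2(ad1116). In dis-3(L75Q) against the wild type, an edgeR p of 0.0375, that of lys-3, was only the 2054th smallest of the 16259 genes tested. The messages of daf-16 (log2 0.44, adjusted p = 0.381), pmk-1 (0.30, adjusted p = 0.306) and elt-2 (0.12, adjusted p = 0.598) were not called in eat-2(ad1116) against the wild type.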

How the data were processed

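RNA of 12 libraries (3 per genotype) was sequenced paired-end. The authors deposited expected counts per gene, 1 table per library, which RSEM 1.3.1 estimates by sharing reads that fit several genes. Alignment with STAR 2.7.0e to WBcel235 (ce11) is listed in the submitters' processing notes, and the strand setting is not given in the sources used here. Counts were rounded. Genes passing edgeR's filterByExpr (minimum count 10) were scaled by TMM (factors 0.928 to 1.14) and tested in 1 quasi-likelihood fit of all 12 libraries (edgeR 4.0.16, limma 3.58.1, R 4.3.3), with Benjamini-Hochberg adjustment over the 16259 genes and calls at 0.05. SE is the absolute log2 fold change divided by the square root of F. Levels per kb use Ensembl 115 exon lengths, and log2 CPM a prior count of 2. Of the 46934 identifiers 46924 matched that annotation. Intervals are 95%, and those on counts cover counting error only.

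All 9 lys genes were named, with ilys genes and regulators named where called, daf-16, pmk-1 and elt-2 as examples of uncalled ones, and for each called lys gene with a mean of at least 5 CPM the 2 genes most alike. The gene family, picked by symbol alone, and the lists and alternatives were chosen with earlier results of these data known. Alternatives were other scalings (RLE, library totals), DESeq2 1.42.0, no filter, only the compared libraries, a replicate block, a stage covariate, 1 library left out, and 3 libraries left out. The fit was checked on simulated counts. Promoter motifs and protein identities were not analysed here.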

Additional observations from a re-analysis of the deposited data

How the results depend on the processing

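lys-7 kept its 3 calls and lys-10 its call in eat-2(ad1116) against the wild type under all 20 alternatives, with log2 fold changes of 2.02 to 2.16 and 3.39 to 4.15 in that comparison. No called value reversed. The number of lys genes called in eat-2(ad1116) against the wild type was 4; it became 2 with the stage covariate, 2 with only the 6 libraries compared, 9 without the 3 libraries apart on the stage score, and 2 to 7 when 1 library was left out (7 without eat-2(ad1116) replicate 1, where 37.5% of all genes were called). The count of 0 in dis-3(L75Q) against the wild type became 7 without those 3 libraries and 0 to 2 with 1 left out (2 without wild type replicate 2, where 7.92% of all genes were called). The count of 2 in the double mutant against the wild type became 7 and ranged over 1 to 4 with 1 library left out (4 without wild type replicate 2, where 14.5% of all genes were called). Against eat-2(ad1116), 0 became 5 without the 3, and stayed 0 with any 1 left out. Against dis-3(L75Q), 2 became 3 without the 3, 1 with only 6 libraries and 1 to 2 with 1 left out. The interaction count of 0 became 7 without the 3 and 0 to 2 with 1 left out (2 without eat-2(ad1116) replicate 1, where 13.5% of all genes were called). The cause of these changes was not tested.

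Over all genes, calls in eat-2(ad1116) against the wild type numbered 1009, against 2284 by DESeq2 and 84 with only 6 libraries. In the other comparisons they were 91, 338 and 30 for dis-3(L75Q) against the wild type, 696, 1798 and 1432 for the double mutant over the wild type, 57, 174 and 31 against eat-2(ad1116), and 201, 608 and 255 against dis-3(L75Q). The interaction gave 10, and 52 by DESeq2. Scaling by library totals alone moved the median of all genes from 0.05 to 0.16 in the double mutant against dis-3(L75Q), and the share of calls that were higher was 86.4% in place of 65.8% in eat-2(ad1116) against the wild type, 76.8% in place of 59.3% in the double mutant against the wild type and 60% in place of 43.8% against dis-3(L75Q).

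The uncalled estimates that changed sign were these. With the stage covariate, lys-8 was at -0.0848 in eat-2(ad1116), lys-6 at -0.0454 and lys-8 at -0.0137 in dis-3(L75Q), and lys-1 at -0.0993, lys-2 at -0.101 and lys-8 at -0.0168 in the double mutant, all against the wild type; lys-3 was at 0.0377 in the double mutant against dis-3(L75Q), and the interactions of lys-4, lys-5 and lys-8 were 0.214, 0.0402 and 0.0817. In dis-3(L75Q) against the wild type lys-5 was at 0.0126 with no filter, 0.40 without the 3 libraries, 0.14 when counted with lys-6, and -0.17 to 0.20 with 1 library left out. For lys-8 the double mutant minus eat-2(ad1116) was -0.001051 with RLE, -0.001003 with DESeq2, -0.0912 without the 3 libraries and -0.10 to 0.14 with 1 left out. Against dis-3(L75Q), library totals gave 0.11 for lys-3 and 0.10 for lys-8, and leaving out 1 library gave -0.23 to 0.20 and -0.0552 to 0.011. The interaction ranged over -0.164 to 0.0439 for lys-7 and -0.66 to 1.17 for lys-10, which was at 0.57 without the 3 libraries.

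Whether the replicate numbers pair the samples could not be told. Of 18 pairs of same-numbered libraries 7 correlated above 0.1 in their deviations from the group means (-0.63 to 0.42). Differently numbered libraries were not compared, and the libraries apart on the stage score carry different numbers. With the replicate number as a block, 3, 0, 2, 0, 2 and 0 lys genes were called in the 6 comparisons in the order eat-2(ad1116), dis-3(L75Q) and the double mutant against the wild type, the double mutant against eat-2(ad1116) and against dis-3(L75Q), and the interaction. Calls over all genes were then 496, 62, 392, 25, 115 and 4. Depth limits lys-10 most, at 1 to 10 counts per library without the eat-2 allele.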
